A study of Mus musculus with 18 samples.

Results

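The 9 genes described here encode enzymes and a carrier of fatty acid oxidation: Cpt1a, Cpt2, Slc25a20, Acadl, Acadm, Acadvl, Hadha, Hadhb and Etfdh. They were taken by symbol from the table of raw counts as a set of β-oxidation genes. All 9 were among its 24537 listed genes, and all 9 passed a filter on low counts that left 11651 genes for testing. Each of the 9 proteins acts in mitochondria, and genes of peroxisomal β-oxidation are given further on as one of several wider lists.

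Mitochondria burn long-chain fatty acids after the acids have been coupled to carnitine, carried across the inner membrane and coupled to coenzyme A again. Each turn of β-oxidation then shortens the chain through dehydrogenation, hydration, a further oxidation and thiolysis, and passes electrons to the respiratory chain. Resting and memory CD8+ T cells are known for using this pathway, whereas activated effector cells rely strongly on glycolysis.

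The study asked how lithocholic acid (LCA), a secondary bile acid, acts on CD8+ T cells with and without editing of Nr4a1, which encodes the nuclear receptor Nur77. RNA was sequenced from 6 groups of 3 libraries. Mouse cells given a CRISPR ribonucleoprotein with a guide kit against Nur77 (labelled KO) were kept overnight as controls, with 10 µM LCA or with 50 µM LCA. Cells given a scrambled guide (labelled WT) were kept in the same 3 ways. All 18 libraries came from cells that started as naive CD8+ T cells, went through the ribonucleoprotein step and were then activated with antibodies to CD3 and CD28. The labels give neither the cut site, the share of cells edited nor whether the libraries of a group came from separate animals or cultures, so a p-value here reflects library-to-library spread that could be technical.

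Libraries held 4113713 to 5945518 counts. Nr4a1 stood at 7.07 to 15.7 CPM (counts scaled to a library's total) in the 9 libraries labelled KO and at 5.87 to 18.02 CPM in the 9 labelled WT, which overlapped. Its group means at control, 10 µM and 50 µM LCA were 10.6, 9.91 and 10.1 CPM in KO and 9.60, 11.1 and 13.6 CPM in WT libraries. The editing could not be checked from these transcript counts, so every difference between guides below is a difference between labels. The defining CD8 T cell genes were present throughout, at a summed 2301 to 3007 CPM for the 5 of 6 markers in the table. Summed markers of CD4 T, B and NK cells reached at most 34.6, 11.9 and 6.27 CPM. A pair of libraries stood apart: olfactory, vomeronasal and trace amine receptor genes summed to 179.6 CPM in KO 50 µM LCA replicate 1 and 240.3 CPM in WT 50 µM LCA replicate 3, against 67.8 to 156.9 CPM in the other 16, and these 2 also had the lowest totals. Averaged values at 50 µM without both are given for each member, and for other named genes where the call changed.

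In these cells the fatty acid oxidation genes moved little. No member passed the test for either dose within either guide, and none passed the test of a difference between guides in its response to LCA. With both guides averaged, Acadl and Acadvl fell at 50 µM LCA, by 0.20 and 0.16 on the log2 scale, and neither call held without the 2 libraries that stood apart or with receptor background as a covariate. The Acadvl value stayed at -0.16 in both, while that of Acadl went to -0.12 and -0.16. Receptor background was 146.1 to 240.3 CPM in WT 50 µM libraries and 80.8 to 139.7 CPM in other WT libraries. The covariate therefore overlaps with dose in WT libraries and can take up part of the dose contrast. Acadl was also higher in the libraries labelled KO than in those labelled WT, and that call held in every alternative that tested for any change. Over all members, the 95% intervals of the averaged contrasts ran from 0.680-fold to 1.32-fold. Those of either dose within either guide were wider, from 0.631-fold to 1.48-fold, both for Hadhb. For the difference between guides in the response they ran from 0.598-fold (Acadm) to 1.74-fold (Hadhb) at 50 µM. At 10 µM they ran from 0.589-fold (Acadm) to 1.61-fold (Cpt2), so these tests bound the members less closely.

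Counts of members called are given beside the share of all genes called. At 50 µM LCA, 0 of 9 members passed in cells labelled KO, where 6.35% of tested genes were called, and 0 of 9 in cells labelled WT, where 8.58% were called. At 10 µM, 0 of 9 passed in cells labelled KO (0.326% of genes called) and 0 of 9 in cells labelled WT (0.386%). Without adjustment, 1 or 2 members had p under 0.05 in each of these 4 comparisons, and DESeq2 called 0 members in each. Between guides, 0 of 9 passed at control (0.627% of genes called), at 10 µM (0.661%) and at 50 µM (1.94%), with 1, 2 and 1 members at an unadjusted p under 0.05 and 0 called by DESeq2. The difference between guides in the response was called in edgeR for 0 of 9 members and 0% of genes at 50 µM and at 10 µM. At an unadjusted p under 0.05 that test held 729 genes at 50 µM and 382 at 10 µM, 0 of them members, and DESeq2 called 1 gene at 50 µM and 0 at 10 µM.

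In the averaged contrasts, 2 of 9 members were called at 50 µM LCA, both lower, where 16.5% of genes were called. With 9 members, this count is close to the background and is read as no result about the members. Values of 7 of the 9 were negative, with a median of -0.15 on the log2 scale, against 48.8% of tested genes negative and a median of 0.01. At 10 µM, 0 of 9 were called (1.82% of genes) and 4 of 9 were negative; 2 had an unadjusted p under 0.05, and DESeq2 called 1, Acadvl. Between 50 and 10 µM, 1 of 9 was called, lower (5.72% of genes). Between guides, 1 of 9 was called, higher in libraries labelled KO (5.15% of genes), and the members' median was -0.01. With 9 members, a count of 1 beside these shares is likewise read as no result about the members as a group. The summed CD8 T cell markers were also lower at 50 µM LCA, at 2301 to 2697 CPM in KO and 2358 to 2608 CPM in WT libraries, against 2806 to 2893 CPM in KO controls and 2931 to 3007 CPM in WT controls. At 10 µM they stood at 2461 to 2763 CPM in KO and 2649 to 2916 CPM in WT libraries. The 3 CD4 T cell markers summed to 18.4 to 34.6 CPM in KO and 19.7 to 24.6 CPM in WT libraries at 50 µM, against 13.6 to 18.1 CPM in KO controls and 12.4 to 17.1 CPM in WT controls. Rn45s, a ribosomal RNA precursor, made up 1.26 to 1.49% of the counts in KO and 1.53 to 1.68% in WT libraries at 50 µM, against 1.19 to 1.22% in KO controls and 0.996 to 1.42% in WT controls. At 10 µM it made up 1.32 to 1.58% in KO and 1.20 to 1.40% in WT libraries, so in KO libraries its share was not highest at 50 µM. The part of these in the changes at 50 µM was not tested, and in these bulk samples fewer cells of a type and less RNA per cell cannot be told apart.

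Levels per kilobase of exon set the members apart more than any treatment did. Acadl, the long-chain acyl-CoA dehydrogenase, averaged 154.2 CPM per kb over the 6 groups, and Acadvl, the very-long-chain acyl-CoA dehydrogenase, 59.3 CPM per kb. Cpt2, which moves acyl groups from carnitine back to coenzyme A inside the mitochondrion, stood at 15.0 CPM per kb and the medium-chain dehydrogenase Acadm at 12.5 CPM per kb. Hadha at 9.69, Cpt1a at 9.40, Etfdh at 8.78 and Slc25a20 at 7.74 CPM per kb followed. Hadhb was lowest at 2.64 CPM per kb, so the span from Acadl to Hadhb was 58.4-fold. The ranges of group means did not overlap between Acadl (126.9 to 173.8 CPM per kb), Acadvl (55.2 to 66.2) and Cpt2 (13.6 to 15.9). Those of Hadha (9.12 to 10.3), Cpt1a (8.24 to 9.99), Etfdh (7.19 to 9.76) and Slc25a20 (6.55 to 8.84) overlapped between neighbours in this order, while Hadha and Slc25a20 did not overlap. Lengths are the summed exons of the mouse GRCm38 annotation, and the counting used by the authors may have covered less. They ran from 2005 bases (Acadl) to 8730 bases (Hadha), so the order, the gaps and the span depend on them. In CPM not divided by length, control means of Cpt2 were 32.6 (KO) and 37.7 (WT), below those of Acadm, Etfdh, Cpt1a and Hadha. Acadl had control means of 343 (KO) and 298 CPM (WT) and Hadhb 16.1 and 18.8 CPM, a narrower span.

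**Figure D1:**
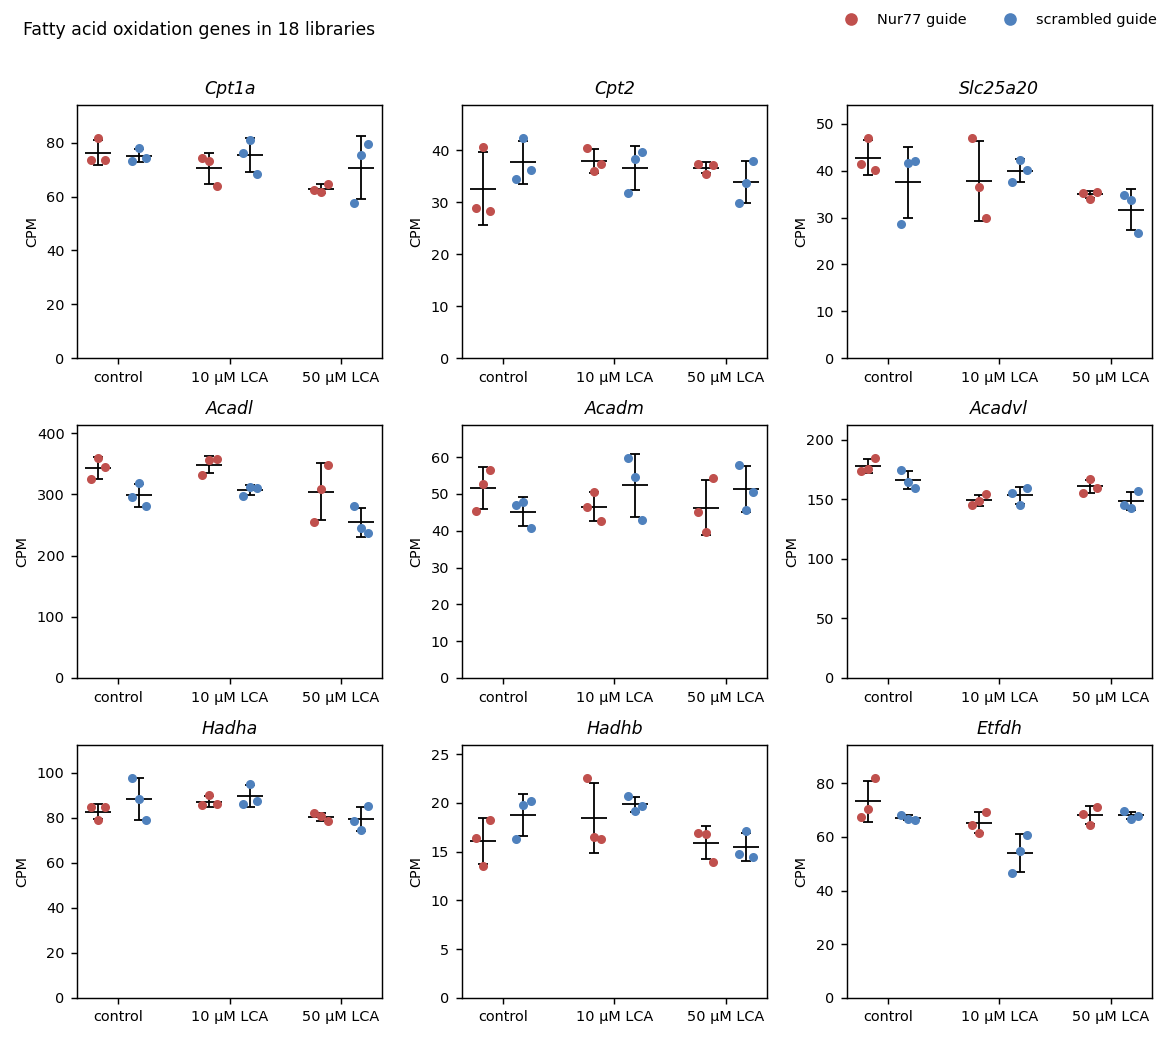
CPM of the 9 genes in each of 18 libraries, by LCA dose, with Nur77-guide libraries (labelled KO) in red left of scrambled-guide libraries (labelled WT) in blue. Horizontal bars are means of 3 libraries and whiskers are SD; Acadl red points lie above the blue ones without overlap at control and 10 µM LCA, and those of Etfdh at 10 µM LCA.

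The carnitine steps come first in the pathway. Cpt1a, the carnitine acyltransferase of the outer mitochondrial membrane that sets the rate of long-chain fatty acid entry, lies on chr19:3322334-3385733 (GRCm38, plus strand). It stood at 73.7, 81.7 and 73.7 CPM in KO control libraries, at 74.4, 73.2 and 63.8 CPM in KO 10 µM libraries, and at 62.4, 61.6 and 64.8 CPM in KO 50 µM libraries. In the libraries labelled WT it had 73.3, 78.1 and 74.2 CPM as control, 76.2, 81.1 and 68.5 CPM at 10 µM, and 57.5, 75.3 and 79.5 CPM at 50 µM. All 3 KO 50 µM libraries lay below the 3 KO controls, while those of WT at 50 µM spanned theirs. The log2 change at 50 µM LCA was -0.28 ± 0.11 (SE) in cells labelled KO and -0.09 ± 0.11 in cells labelled WT, and neither passed (edgeR adjusted p = 0.142 and 0.694). Averaged over guides it was -0.18 ± 0.08 with an adjusted p of 0.111, and -0.22 (adjusted p = 0.0866) without both libraries that stood apart. Cpt1a responses differed between guides by -0.19 ± 0.16, which did not pass (edgeR adjusted p = 0.869).

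Slc25a20, the carrier that exchanges acylcarnitine for carnitine across the inner membrane, had the most negative averaged value at 50 µM LCA. It stood at 35.3, 34.1 and 35.5 CPM in KO 50 µM libraries, against 41.5, 47.0 and 40.1 CPM in KO controls, which did not overlap. WT 50 µM libraries had 34.8, 33.7 and 26.6 CPM, against 28.7, 41.7 and 42.1 CPM in WT controls, which overlapped through 1 low control. The averaged log2 change was -0.27 ± 0.11 (edgeR adjusted p = 0.101); it was -0.22 (adjusted p = 0.280) without both libraries that stood apart, -0.23 (adjusted p = 0.215) with receptor background as a covariate, and -0.35 (adjusted p = 0.0265) without WT control replicate 1, the low library. It passed in that 1 of 25 alternatives. Cpt2 showed no such pattern, at 35.5 to 37.4 CPM in KO 50 µM libraries and 28.2 to 40.7 CPM in KO controls, and at 29.8 to 37.9 CPM in WT 50 µM libraries and 34.5 to 42.3 CPM in WT controls. Its averaged log2 change was 0.01 ± 0.11, and -0.04 without both libraries that stood apart.

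The acyl-CoA dehydrogenases carry out the first oxidation of each turn. Acadl lies on chr1:66830839-66863277 (GRCm38, minus strand) and was the member with the highest counts, 1051 to 2041 per library. A processed pseudogene, Gm15793, lies within it over 495 bases of the same strand. It stood at 325, 359 and 345 CPM in KO controls, at 332, 356 and 358 CPM in KO 10 µM libraries, and at 256, 309 and 349 CPM in KO 50 µM libraries. In libraries labelled WT it stood at 296, 318 and 281 CPM as control, at 297, 312 and 311 CPM at 10 µM, and at 281, 245 and 237 CPM at 50 µM. All KO libraries lay above all WT libraries at control and at 10 µM. At 50 µM the groups overlapped, because KO replicate 1, a library that stood apart, lay below WT replicate 1.

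With guides averaged, Acadl fell by 0.20 ± 0.06 on the log2 scale at 50 µM LCA against control (95% interval -0.32 to -0.08; edgeR adjusted p = 0.0178). It changed by 0.03 ± 0.06 at 10 µM (adjusted p = 0.911), and was lower at 50 µM than at 10 µM by -0.23 ± 0.06 (edgeR adjusted p = 0.0149). The fall at 50 µM rested partly on the libraries that stood apart. Without both, the 50 µM value against control was -0.12 (edgeR adjusted p = 0.158) and against 10 µM -0.15 (adjusted p = 0.141). With receptor background as a covariate they were -0.16 (edgeR adjusted p = 0.0729) and -0.16 (adjusted p = 0.294). Leaving out KO 50 µM replicate 1, WT 50 µM replicate 3, KO control replicate 2 or WT control replicate 2 alone also ended the call against control (edgeR adjusted p from 0.0514 to 0.0591), as did leaving out WT 50 µM replicate 2 or 3 for the call against 10 µM (0.0545 and 0.0616). Within one guide the 50 µM change was -0.17 ± 0.08 in cells labelled KO and -0.23 ± 0.09 in cells labelled WT, and neither passed (edgeR adjusted p = 0.265 and 0.0878).

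Acadl was higher in libraries labelled KO than in those labelled WT by 0.22 ± 0.05 on the log2 scale over the 3 doses, or 1.16-fold (95% interval 1.08 to 1.24; edgeR adjusted p = 0.00393). The difference was 0.20 ± 0.08 at control, 0.19 ± 0.08 at 10 µM and 0.26 ± 0.09 at 50 µM LCA, where no single dose passed (edgeR adjusted p = 0.432, 0.505 and 0.111). It kept its sign and its call in all 25 alternatives that tested for any change, with log2 values from 0.18 to 0.25. At 50 µM alone, leaving out both libraries that stood apart gave 0.32 and passed (edgeR adjusted p = 0.0327). Summed myeloid markers moved with the same labels, at 10.2 to 25.7 CPM in the KO libraries and 31.1 to 62.7 CPM in the WT libraries, with all 7 markers in the table and S100a8 at 0 in KO controls and Ngp at 0 in KO 50 µM libraries. Red cell and platelet markers reached 0 to 14.6 CPM in KO libraries and 2.93 to 42.7 CPM in WT libraries. Their part in the Acadl difference was not tested.

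Acadvl lies on chr11:70010183-70015411 (GRCm38, minus strand) and encodes the membrane-bound dehydrogenase that takes the longest chains. It stood at 174, 175 and 185 CPM in KO controls, at 145, 148 and 154 CPM in KO 10 µM libraries, and at 155, 167 and 159.8 CPM in KO 50 µM libraries. In libraries labelled WT it stood at 175, 165 and 159.4 CPM as control, at 155, 145 and 159.2 CPM at 10 µM, and at 145, 143 and 157 CPM at 50 µM. Every LCA library lay below every control library of its own guide, at both doses. Averaged over guides, Acadvl fell by 0.16 ± 0.05 on the log2 scale at 50 µM LCA (95% interval -0.27 to -0.05; edgeR adjusted p = 0.0439). At 10 µM the value was -0.18 ± 0.05 and did not pass in edgeR (adjusted p = 0.0739), but did in DESeq2 (adjusted p = 0.0214). The call at 50 µM lay close to the threshold: it held in 12 of the 25 alternatives, with adjusted p-values from 0.0230 to 0.0963 and log2 values from -0.18 to -0.14, and without both libraries that stood apart it was -0.16 (edgeR adjusted p = 0.0669). The Acadvl gene overlaps Dvl2 on the opposite strand over 2119 bases. No source used here says whether the counting used strand, so reads from the overlap cannot be told apart.

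Acadm, whose enzyme takes medium chains, had values of opposite sign in the cells of each guide. It stood at 39.6 to 54.2 CPM in KO 50 µM libraries and 45.4 to 56.6 CPM in KO controls, and at 45.6 to 57.9 CPM in WT 50 µM libraries and 40.7 to 47.9 CPM in WT controls. The log2 changes were -0.16 ± 0.14 and 0.19 ± 0.14 for cells labelled KO and WT, and their difference of -0.34 ± 0.20 did not pass (edgeR adjusted p = 0.816). The same difference at 10 µM was -0.37 ± 0.20 (edgeR adjusted p = 1). Averaged over guides, the 50 µM value was 0.01 ± 0.10, and 0.03 without both libraries that stood apart.

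The windows around the start sites of Acadl and Acadvl, the members that passed a test, are shown here on the sense strand from 250 bases before to 50 bases after the RefSeq start (GRCm38.p6). They are chr1:66863260-66863559 (minus strand) for Acadl and chr11:70015379-70015678 (minus strand) for Acadvl, and capitals mark matches to any of 8 short motifs.
Acadl: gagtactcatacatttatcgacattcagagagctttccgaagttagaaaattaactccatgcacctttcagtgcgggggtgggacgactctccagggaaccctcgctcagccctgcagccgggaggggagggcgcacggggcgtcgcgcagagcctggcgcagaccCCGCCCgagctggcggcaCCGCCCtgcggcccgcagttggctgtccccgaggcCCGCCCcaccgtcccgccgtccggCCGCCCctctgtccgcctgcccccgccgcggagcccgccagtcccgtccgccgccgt
Acadvl: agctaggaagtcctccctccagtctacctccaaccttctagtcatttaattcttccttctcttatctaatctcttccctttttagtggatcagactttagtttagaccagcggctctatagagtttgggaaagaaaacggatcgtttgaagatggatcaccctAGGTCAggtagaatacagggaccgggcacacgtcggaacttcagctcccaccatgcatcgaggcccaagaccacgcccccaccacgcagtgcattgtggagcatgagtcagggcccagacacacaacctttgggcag
In the Acadl window all capitals are the GC box GGGCGG on the opposite strand, 4 in all, starting 84, 66, 31 and 7 bases before the start site. In the Acadvl window the only match is the nuclear receptor hexamer AGGTCA, 87 bases before the start. Both strands were searched in each window of the same length. Over 32851 RefSeq start sites, 35.7% of windows held a GC box and 16.3% this hexamer. Among the 9 members, 7 held a GC box and 3 held the hexamer (Acadm, Acadvl and Cpt1a). The direct repeat AGGTCANAGGTCA, to which PPAR and RXR pairs are known to bind, was found in no member's window and in 0.0396% of all windows, and the hexamer lies inside it. Its extended form TCAAGGTCA (0.423% of windows), the E-box CACGTG (7.15%) and the core of the interferon-stimulated response element, 2 copies of GAAA with 2 bases between (3.44%), were in no member's window. CCAAT (37.4% of windows) was in those of Etfdh and Cpt1a, and TTCNNNGAA (8.30%) in those of Cpt2, Hadha and Hadhb.

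Hadha and Hadhb encode the α and β subunits of the mitochondrial trifunctional protein, which carries out hydration, the second oxidation and thiolysis of long chains. They lie head to head on chromosome 5, with RefSeq start sites 273 bases apart, so that their start windows share 228 bases. The Hadha window, chr5:30154931-30155230 (GRCm38.p6, minus strand), is shown because most of it is also the Hadhb window read from the other strand; capitals mark a GC box and TTCNNNGAA.
Hadha: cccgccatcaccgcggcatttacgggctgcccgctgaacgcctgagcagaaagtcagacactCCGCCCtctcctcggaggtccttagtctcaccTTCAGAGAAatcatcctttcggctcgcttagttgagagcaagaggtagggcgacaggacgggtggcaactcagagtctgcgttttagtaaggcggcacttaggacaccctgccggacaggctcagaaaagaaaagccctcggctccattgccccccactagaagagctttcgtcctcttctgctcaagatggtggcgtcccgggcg
Hadha stood at 78.5 to 82.2 CPM in KO 50 µM libraries and 79.0 to 84.7 CPM in KO controls, and at 74.7 to 85.4 CPM in WT 50 µM libraries and 79.1 to 97.7 CPM in WT controls. Hadhb, with 64 to 108 counts per library the least counted member, stood at 13.9 to 16.9 and 13.6 to 18.3 CPM in the same KO groups and at 14.5 to 17.1 and 16.3 to 20.2 CPM in the same WT groups. Neither passed at 50 µM, with averaged log2 changes of -0.10 ± 0.07 for Hadha and -0.15 ± 0.13 for Hadhb (edgeR adjusted p = 0.373 and 0.493), and -0.13 and -0.15 without both libraries that stood apart. Hadha had 9.69 and Hadhb 2.64 CPM per kb, over summed exons of 8730 and 6595 bases. Their log2 CPM correlated at r = 0.303 over the 18 libraries, a value that counting error in the few Hadhb counts lowers. The Hadha gene overlaps Garem2 on the opposite strand over 75 bases.

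Etfdh encodes the oxidoreductase that hands electrons from the acyl-CoA dehydrogenases to ubiquinone. Its lowest values were at 10 µM, not 50 µM. It stood at 67.4, 70.3 and 82.0 CPM in KO controls, at 64.6, 61.6 and 69.4 CPM in KO 10 µM libraries, and at 68.6, 64.4 and 71.1 CPM in KO 50 µM libraries. In libraries labelled WT it stood at 68.1, 66.7 and 66.3 CPM as control, at 46.4, 54.7 and 60.7 CPM at 10 µM, and at 69.5, 66.7 and 67.7 CPM at 50 µM. The 3 WT 10 µM libraries lay below all others labelled WT, whereas those labelled KO overlapped their controls. The averaged log2 change at 10 µM was -0.24 ± 0.08 and did not pass (edgeR adjusted p = 0.115; 0.0589 to 0.353 over the alternatives). At 50 µM it was -0.04 ± 0.08 (edgeR adjusted p = 0.748), and -0.05 without both libraries that stood apart. The Etfdh gene overlaps 4930579G24Rik on the opposite strand over 422 bases, and Gm37973 on its own strand over 1289 bases.

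**Figure D2:**
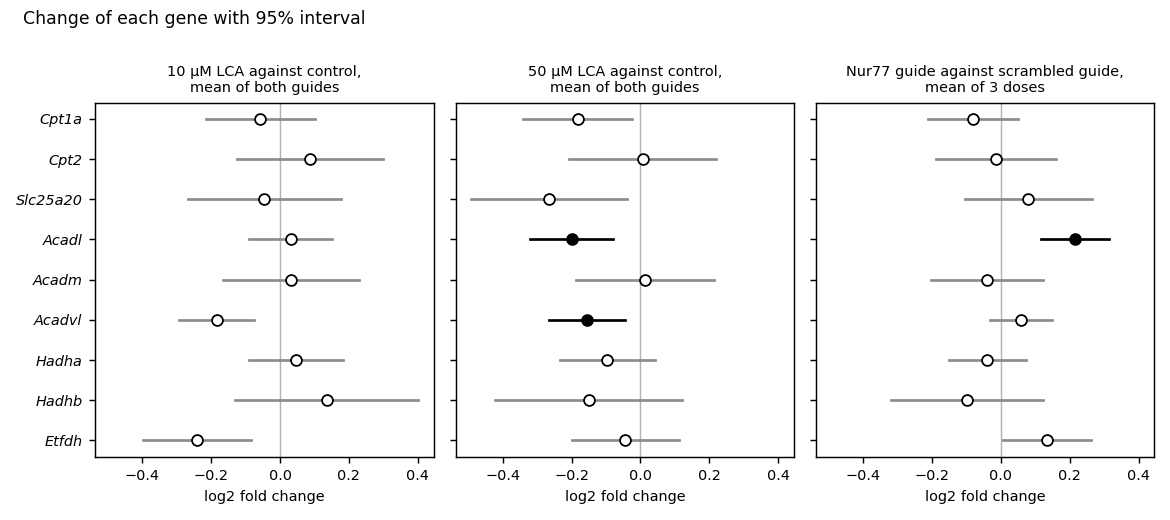
Log2 fold change of each gene with its 95% interval for 10 µM LCA against control, 50 µM LCA against control (each averaged over guides) and Nur77 guide against scrambled guide (averaged over 3 doses). Filled points passed an adjusted p of 0.05 in edgeR: Acadl and Acadvl at 50 µM, and Acadl between guides.

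The members varied together only weakly in these counts. Over the 18 libraries the 36 pairs of members had Pearson r of log2 CPM from -0.46 to 0.458, with a median of 0.101 and 0 pairs above 0.5. The highest were Slc25a20 with Hadhb (0.458), Slc25a20 with Acadl (0.451) and Acadvl with Etfdh (0.44), and the lowest was Hadhb with Etfdh. These values share the libraries and their depth and are a description. Counting error pulls r toward 0 where counts are few, and no r of other gene pairs at like counts is given beside them. Low r therefore cannot show that the members lack shared regulation.

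Some genes outside the pathway had higher r with Acadl than any member had, which the far larger number of candidates outside it favours. Among 7425 tested genes with a mean of at least 20 CPM, the 5 most like it were P2ry14, a receptor for UDP-sugars (r = 0.949 over 18 libraries), Gbp4, an interferon-induced guanylate-binding protein (0.932), Serpinb6b, a serine protease inhibitor (0.919), Gm4951 (0.915) and the chemokine receptor gene Ccr2 (0.905). The 99th percentile of r with Acadl was 0.77. Without the 2 libraries farthest from the Acadl median the 5 values were 0.846 to 0.950. With group means removed, they were 0.758 to 0.901. The genes were picked over these same libraries, so high values are favoured here too. KO 50 µM replicate 1, a library that stood apart, was not among the 2 left out. P2ry14 stood at 124 to 135 CPM in KO controls and 79.5 to 107 CPM in WT controls, and at 74.8 to 122 CPM in KO 50 µM and 68.3 to 82.8 CPM in WT 50 µM libraries. Acadl was itself lower at 50 µM LCA and higher in libraries labelled KO, so genes picked for their likeness to it over these libraries share those directions by selection, and their values are a description. They ran from -0.19 ± 0.05 (Gbp4) to -1.11 ± 0.28 (Ccr2) and from 0.20 ± 0.04 (Gbp4) to 0.91 ± 0.22 (Ccr2) on the log2 scale. Without both libraries that stood apart the 50 µM value was -0.20 for P2ry14, -0.23 for Gm4951 and -0.90 for Ccr2.

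**Figure D3:**
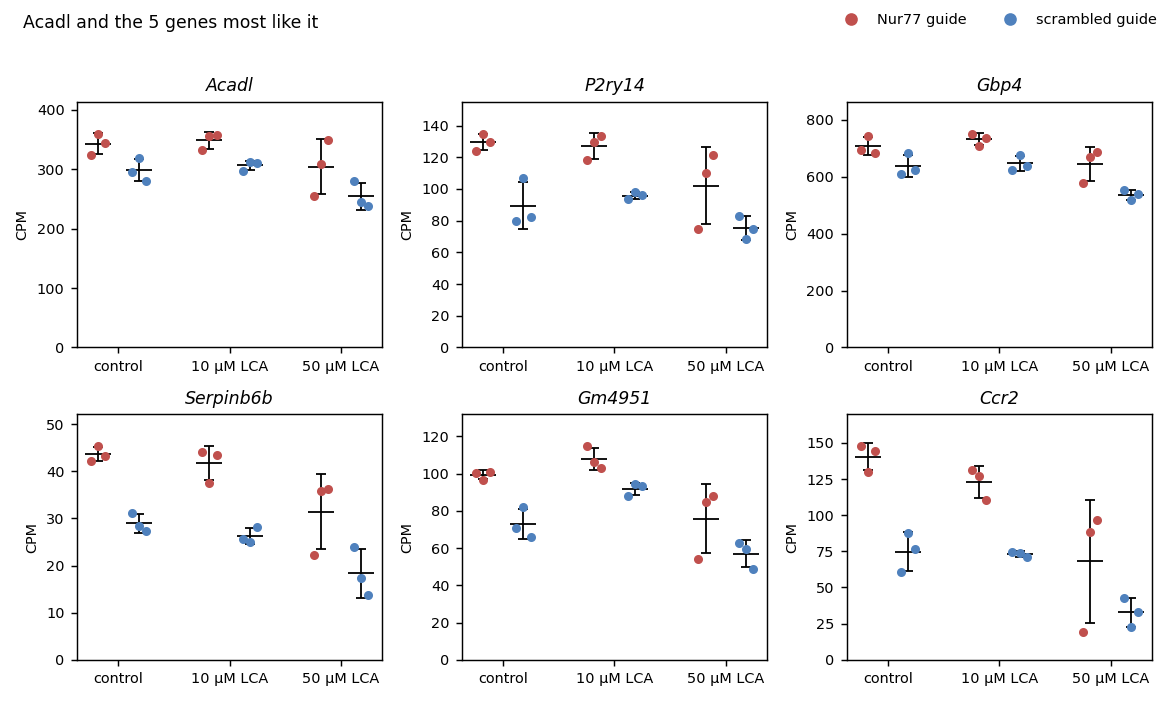
CPM of Acadl and of the 5 genes most like it over 18 libraries, by LCA dose, with Nur77-guide libraries (labelled KO) in red left of scrambled-guide libraries (labelled WT) in blue. Bars are means of 3 libraries and whiskers SD; in every panel KO 50 µM replicate 1 is the lowest red point.

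Cpt1a had weaker company. Its 5 closest genes were Arhgap15 (r = 0.784), Trip12 (0.773), Cnot6l (0.772), Mbtps1 (0.731) and Hbp1 (0.722), against a 99th percentile of 0.578. Without the 2 libraries farthest from the Cpt1a median, the 5 values were 0.636, 0.608, 0.561, 0.615 and 0.664, in the same order. That of Cnot6l was below the 99th percentile, which is over all 18 libraries and so not matched to these values. These genes too were picked over the same libraries, so their changes are a description. In the averaged 50 µM contrast the log2 values were -0.33 ± 0.07 for Arhgap15, -0.12 ± 0.07 for Trip12, -0.35 ± 0.08 for Cnot6l, -0.21 ± 0.07 for Mbtps1 and -0.46 ± 0.09 for Hbp1.

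Genes of uptake and activation act before the carnitine shuttle. At 50 µM LCA averaged over guides, 16.5% of all tested genes were called, 8.66% lower and 7.86% higher. Of 10 tested genes of fatty acid uptake and activation, 4 fell and 1 rose in this contrast. The lower ones were Slc27a1, a fatty acid transport protein (-0.93 ± 0.18), the acyl-CoA synthetases Acsl3 (-0.86 ± 0.19) and Acsl4 (-0.33 ± 0.06), and the acyl-CoA binding protein gene Dbi (-0.66 ± 0.13), with edgeR adjusted p of at most 0.0038. Without both libraries that stood apart these 4 were still called, at -0.80, -0.72, -0.29 and -0.53. Slc27a1 stood at 5.01, 10.1 and 5.50 CPM in KO 50 µM libraries, against 18.96, 17.9 and 13.7 CPM in KO controls, which did not overlap. The scavenger receptor gene Cd36 was higher at 50 µM, by 1.01 ± 0.26 (edgeR adjusted p = 0.00607), but KO 50 µM replicate 1, at 19.1 CPM against 6.73 and 5.89 CPM in replicates 2 and 3, carried part of this. Without the 2 libraries that stood apart Cd36 was at 0.57 and not called (edgeR adjusted p = 0.140).

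Values for the other carnitine, mitochondrial, peroxisomal and respiratory genes are given for the same averaged contrast, where 16.5% of all tested genes were called. No list was tested as a set, and the genes named are a description. Of 4 other tested carnitine genes, Crot, the peroxisomal carnitine acyltransferase, fell by 0.35 ± 0.10. Of 23 other mitochondrial genes, Acaa2, a thiolase of the last step, fell by 0.37 ± 0.07, and Pcca, a subunit of propionyl-CoA carboxylase, fell by 0.35 ± 0.09. Acaa2 stood at 90.5 to 99.9 CPM in KO 50 µM libraries, against 117 to 148 CPM in KO controls, and passed within each guide (edgeR adjusted p = 0.00227 in KO and 0.0362 in WT). Among the peroxisomal genes, the sterol carrier and thiolase gene Scp2 fell by 0.27 ± 0.09, and was not called without the libraries that stood apart (edgeR adjusted p = 0.0656). Of 10 genes of the citric acid cycle and respiratory chain, Sdhd fell by 0.38 ± 0.07, Idh3a by 0.19 ± 0.06 and Cs by 0.17 ± 0.05; without the libraries that stood apart Idh3a was not called (edgeR adjusted p = 0.113). The list medians at 50 µM were -0.14, -0.07, -0.06, 0.02 and -0.07 for uptake and activation, carnitine, mitochondrial, peroxisomal and respiratory genes in that order.

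Of 15 tested regulators and PPAR targets, the retinoid receptor gene Rxra and the mitochondrial thioesterase gene Acot2 rose at 50 µM LCA, and the lipid droplet gene Plin2 fell, with a list median of 0.08. In that averaged contrast 16.5% of all tested genes were called. Rxra was at 1.83 ± 0.21 on the log2 scale with guides averaged. Acot2 (0.64 ± 0.21) and Plin2 (-0.28 ± 0.10) were not called without the libraries that stood apart (edgeR adjusted p = 0.228 and 0.0752). In libraries labelled KO against WT, Pparg (0.88 ± 0.19), a lipid-sensing nuclear receptor gene, Plin2 (0.47 ± 0.08) and Txnip (0.43 ± 0.06), an inhibitor of thioredoxin and glucose uptake, were higher, with edgeR adjusted p of at most 0.00222. The fatty acid binding protein gene Fabp5, of the uptake and activation list, was lower, by -0.26 ± 0.07 (edgeR adjusted p = 0.0233). Genes of that list called lower between guides ran from 0 to 2 over the alternatives, so the Fabp5 call did not hold in all. Pparg had 7.90, 14.3 and 16.2 CPM in KO controls and 9.09, 6.59 and 8.09 CPM in WT controls, so the groups overlapped there. No other gene of the 6 wider lists was called between guides, where 5.15% of all tested genes were called.

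**Figure D4:**
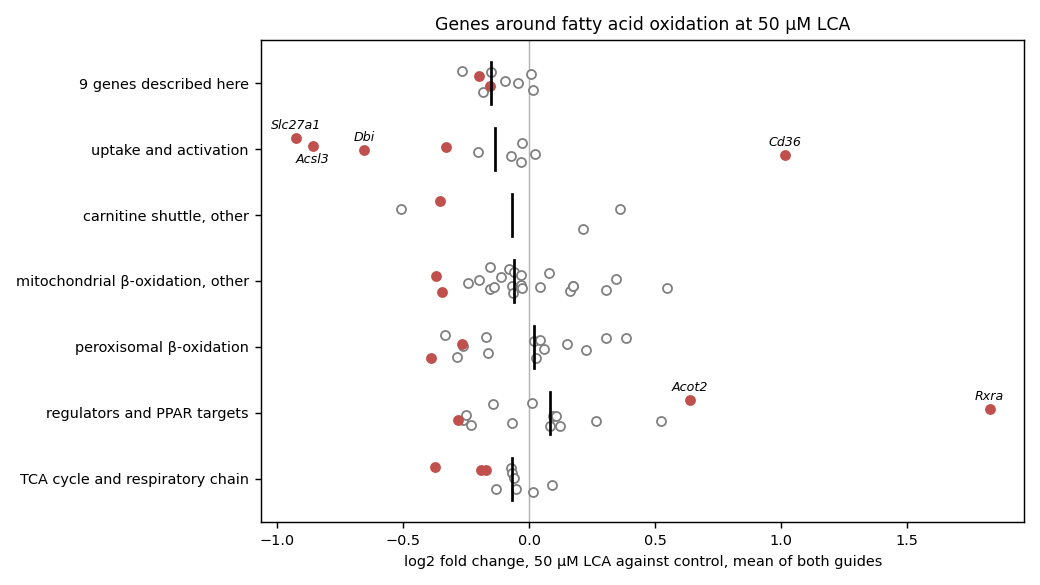
Log2 fold change at 50 µM LCA against control, averaged over guides, of the 9 genes and of the tested genes of 6 wider lists; each point is a gene, filled points passed an adjusted p of 0.05 in edgeR and vertical bars are list medians. The 9 genes lie within 0.3 of 0, while Slc27a1, Acsl3, Dbi, Cd36, Acot2 and Rxra lie beyond 0.6.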

How the data were processed

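RNA of mouse CD8+ T cells was sequenced in 18 libraries after an ultra-low input cDNA preparation, per the labels' protocols. The authors deposited raw counts per gene symbol. STAR, HOMER, DESeq2, GRCm38 and mm10 are named in the submitters' processing notes; for the role and version of each tool, the annotation and the use of strand, no source used here gives a statement.

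The 9 members, the wider lists, the markers, the contrasts and the alternatives were chosen with earlier results of these data known. Members are named throughout. Of each wider list, up to 4 genes called each way at 50 µM LCA were named, smallest p first, or the most abundant. A gene of these lists is not reported here. Genes called between guides, the motifs, and the alternatives for genes of the wider lists were chosen after values were seen.

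All 18 libraries entered 1 model with 6 group means in edgeR 4.0.16 (limma 3.58.1, R 4.3.3), with filterByExpr, TMM scaling and robust quasi-likelihood F tests. P-values were adjusted by Benjamini-Hochberg over 11651 genes in each of 13 contrasts, and genes under 0.05 were called. Errors of log2 changes are standard errors, the log2 change divided by the root of its F value. CPM are on TMM-scaled totals, and log2 CPM used a prior count of 2. Intervals are 95%. The code was tested on simulated data. Replicate libraries were not copies: their squared differences over counting error averaged 2.44 to 8.56. Alternatives included DESeq2 1.42.0, other scaling and filters, a replicate block, each library left out, a covariate of 1478 receptor genes, the 2 libraries that stood apart left out and a test against a log2 change of 0.5. Positions and exon lengths came from GENCODE M21 on GRCm38, and start windows from RefSeq, which held all 9 members (Python 3.11.15).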

Additional observations from a re-analysis of the deposited data

How the results depend on the processing

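Of 3123 recomputed log2 changes of the members, 3084 kept their side of the threshold, 27 lost a call and 12 gained one. Most of the 3123 belong to values that were not called in the reported fit and so could not lose a call. Among 25 alternatives that tested for any change, the call of Acadl held in 19 at 50 µM averaged, 21 at 50 against 10 µM and 25 between guides. That of Acadvl at 50 µM averaged held in 12. No called value changed sign; 98 values that were not called did, each of them smaller than its SE in the reported fit. Tested against a log2 change of 0.5, members called went to 0 at 50 µM averaged, at 50 against 10 µM and between guides, and genes called to 44 (WT 50 µM), 1 (WT 10 µM), 39 (KO 50 µM), 2 (KO 10 µM), 13, 9 and 15 (KO against WT at control, 10 and 50 µM), 113 (50 µM averaged), 12 (10 µM averaged), 7 (50 against 10 µM) and 41 (between guides). With receptor background as a covariate, 0 members were called at 50 µM averaged and at 50 against 10 µM, and genes called were 315 (WT 50 µM), 74 (WT 10 µM), 123 (KO against WT at 10 µM), 199 (50 against 10 µM) and 6 (response difference at 50 µM). Without both libraries that stood apart, members called were 0 at 50 µM averaged and at 50 against 10 µM, 1 at 10 µM averaged and 1 for KO against WT at 50 µM. Genes called were then 113 (WT 10 µM), 428 (KO 50 µM), 98 (KO 10 µM), 152 and 158 (KO against WT at control and 10 µM), 350 (10 µM averaged) and 383 (50 against 10 µM). With no filter, 1 member was called at 50 µM in WT, at 50 µM for KO against WT and at 50 µM averaged, and genes called were 104 (WT 10 µM), 103 (KO 10 µM), 141, 142 and 357 (KO against WT at control, 10 and 50 µM), and 3 for either response difference. With only the compared groups fitted, they were 136 (WT 10 µM), 372 (KO 50 µM), 123 (KO 10 µM), 211, 128 and 52 (KO against WT at control, 10 and 50 µM) and 1 (response difference at 10 µM). DESeq2 called 70 genes (WT 10 µM), 62 (KO 10 µM), 1 (response difference at 50 µM) and 1 member (10 µM averaged). With the replicate block, 1 member was called at 50 µM averaged, Acadl. The deviations of same-numbered libraries had 45 correlations, from -0.218 to 0.0881. Whether the replicate numbers pair libraries was not tested. The cause of the changes in calls between alternatives was not tested.

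Leaving out each library in turn, genes called ran from 522 to 1304 (WT 50 µM), 4 to 111 (WT 10 µM), 384 to 814 (KO 50 µM), 6 to 96 (KO 10 µM), 28 to 156, 43 to 157 and 106 to 370 (KO against WT at control, 10 and 50 µM), 0 to 6 (response difference at 50 µM), 106 to 352 (10 µM averaged) and 409 to 819 (50 against 10 µM). Members called ran from 0 to 1 at 50 µM in WT, at 50 µM in KO, for KO against WT at 50 µM, at 10 µM averaged and at 50 against 10 µM, and from 0 to 2 at 50 µM averaged. With 64 to 108 counts per library, Hadhb had the widest error of the 9 genes.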
